A study of Chlamydomonas reinhardtii with 9 samples.

Results

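The transcripts described here come from 10 loci of the green alga Chlamydomonas reinhardtii that carry the names of antioxidant enzymes and of enzymes that make or recycle ascorbate. They were picked by locus number for their named function, with earlier results of these data known, and all 10 are among the 17737 identifiers of the count files. The names are those given with the locus numbers. The table of genes used here holds no symbols, so the names could not be checked against an annotation. RNA was sequenced from 9 cultures of the wild-type strain CPCC11, exposed for 2 h in artificial freshwater. The cultures formed 3 groups of 3 biological replicates: control, 0.05 nM methylmercury (MeHg) and 0.5 nM MeHg. MeHg, an organic mercury compound, binds strongly to thiols such as those of glutathione and cysteine. The labels of the 0.05 nM samples word the source differently and alone name a sequencer, so a separate submission and the dose cannot be told apart for that group.

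Reactive oxygen species form in chloroplasts, mitochondria and peroxisomes whenever electrons leak to oxygen. Superoxide dismutases turn superoxide into hydrogen peroxide, which catalase, peroxiredoxins and ascorbate peroxidases then remove. Ascorbate peroxidases spend ascorbate, which is made anew through VTC2 and recycled by dehydroascorbate and monodehydroascorbate reductases. These enzymes are part of the enzymatic antioxidant system of algae and plants.

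Each library held 15138888 to 20433375 reads assigned to genes. Levels are given as CPM, read counts scaled to a common library size with TMM factors that correct for differences in library composition. The TMM factors ran from 0.991 to 1.13 in the 6 treated libraries and from 0.824 to 0.946 in the controls, with control replicate 3 lowest. Reads with several alignments, left uncounted, amounted to 19.0% to 23.0% of the assigned count in treated libraries. In control replicates 1, 2 and 3 these reads amounted to 24.2%, 27.0% and 43.7%. Their part in the results was not tested. Scaled by library totals alone, the median gene shifted upward by 0.29 at 0.5 nM and by 0.26 at 0.05 nM on the log2 scale, so all directions below are relative to the TMM scale unless stated otherwise. The 10 loci had 45 to 8368 reads per library, and all 10 passed the filter on low counts. In bulk cultures, a change in the number of cells of one state cannot be told apart from a change in RNA per cell.

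The loci fell into those with lower transcript levels under MeHg, a single one with a higher level, and those without a called change. At 0.5 nM, CAT1, PRX2, FSD1 and DHAR1 fell to 60.9% to 67.6% of the control level, and no locus was called higher. At 0.05 nM, CAT1, PRX2 and MDAR1 fell and APX2 rose. CAT1 and PRX2 fell at both doses. The remaining loci, APX1, MSD1, MSD3 and VTC2, were called at neither dose. These calls come from the main fit, with group as the only term. With the replicate number added as a block, APX1 and APX2 were also called higher at 0.5 nM, and VTC2 and MDAR1 lower. At 0.05 nM the block added VTC2 as higher, and FSD1 and DHAR1 as lower.

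Calls rest on an adjusted p under 0.05 in edgeR's quasi-likelihood fit, with the Benjamini-Hochberg method applied over 14778 genes. At 0.5 nM, 4 of 10 loci were called, against 60.3% of all genes tested, and the 4 lower and 0 higher loci compare with 28.7% of all genes called lower and 31.6% called higher. At 0.05 nM, 4 of 10 were called against 52.2% of all genes. The 3 lower and 1 higher compare with 25.0% and 27.2%. All libraries at 0.5 nM lay below all controls for 5 loci and above for 0, against 29.7% and 33.4% of all genes, or 63.2% in either direction. At 0.05 nM 1 locus (CAT1) lay wholly below and 1 (VTC2) wholly above the controls, against 28.3% and 31.8% of all genes, or 60.1% in either direction. Whether these shares differ from those of all genes was not tested. The absolute log2 change had a median of 0.43 over the loci at 0.5 nM and 0.54 over all genes, and at 0.05 nM the medians were 0.28 and 0.45. Among the 10 loci at 0.5 nM, where edgeR called 0 higher, 1 higher locus (APX2) had an unadjusted p under 0.05 and DESeq2 called 1.

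Replicate 1 deviated from its group mean alike in all groups (Pearson correlations of 0.57 to 0.63 over the genes tested). For replicate 2 these correlations were 0.28 to 0.37, and for replicate 3 only 0.10 to 0.21. Control replicate 3 correlated more with replicate 2 of each dose (0.37 at 0.05 nM, 0.34 at 0.5 nM). A fit with the replicate number as a block is given where it changes a call. With the block, 2 loci were higher and 6 lower at 0.5 nM, where 5427 of 14778 genes were higher and 4853 lower. At 0.05 nM 2 loci were higher and 5 lower, beside 4900 and 4500 of all genes. Scaled by library totals, 3 loci were higher and 1 lower at 0.5 nM, where 6707 genes were higher and 2557 lower. At 0.05 nM 4 loci were higher and 1 lower, beside 5905 and 2080 of all genes. Whether the loci differ from all genes in these settings was not tested. With 1 library left out, the count at 0.05 nM ran from 0 to 1 higher and from 1 to 5 lower. The counts of all genes ran from 3239 to 4074 higher and from 3150 to 3765 lower at 0.05 nM. At 0.5 nM they ran from 4163 to 4704 higher and from 3949 to 4260 lower. No locus was called higher at 0.05 nM once any of 5 libraries was omitted, namely replicates 1 and 2 of the controls, replicates 2 and 3 at 0.05 nM and replicate 3 at 0.5 nM. The lower count was 1 without control replicate 3 or 0.05 nM replicate 3, and 5 without control replicate 1. Of all genes, 3482, 3150 and 3765 were lower in those fits, in the same order. At 0.5 nM, 1 locus (APX2) was called higher without control replicate 3, 0.05 nM replicate 1, 0.05 nM replicate 2 or 0.5 nM replicate 1, and 4 to 5 were lower over the 9 omissions.

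**Figure D1:**
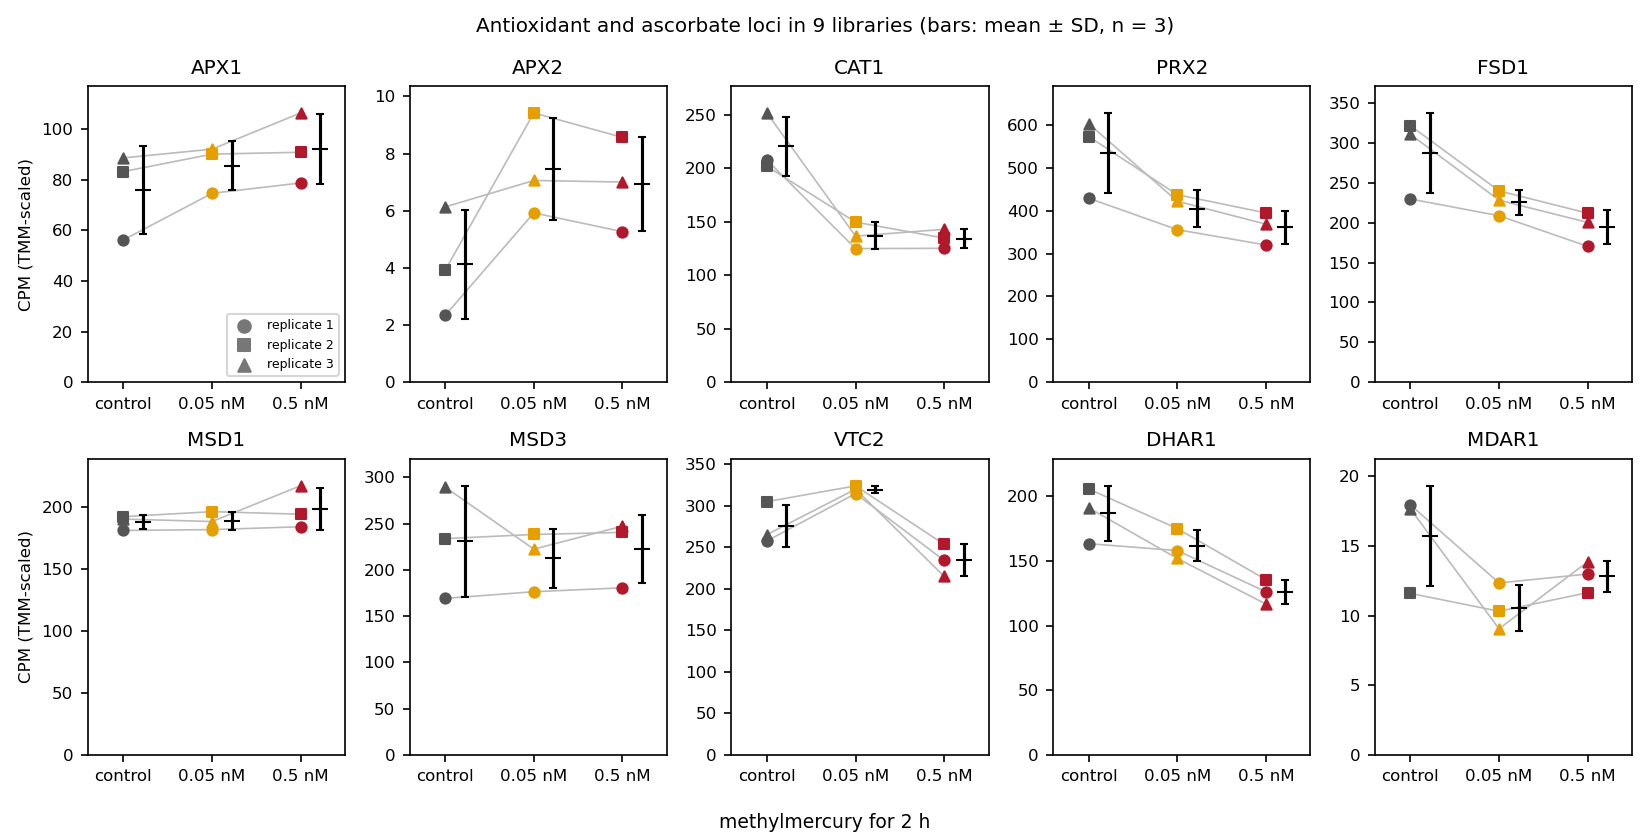
CPM after TMM scaling (y axis, from 0) of each of the 10 loci in the control, 0.05 nM and 0.5 nM libraries (x axis), with marker shapes and grey lines for the replicate number and black bars for mean ± SD (n = 3). CAT1 sits at 125 to 143 CPM at 0.5 nM, below every control, while MSD1 sits between 181 and 217 CPM in all 9 libraries.

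Among the enzymes that remove hydrogen peroxide, the catalase locus CAT1 (Cre09.g417150) had the smallest adjusted p of the 10 at both doses. Catalase splits hydrogen peroxide without using a reductant. CAT1 stood at 208, 202 and 252 CPM in control replicates 1 to 3, at 125, 149.6 and 137 CPM at 0.05 nM, and at 125, 135 and 143 CPM at 0.5 nM. All treated libraries lay below all controls, and the libraries of the doses overlapped. The means were 134 ± 8.89 CPM at 0.5 nM and 137 ± 12.4 CPM at 0.05 nM, against 220.4 ± 27.3 CPM in controls (SD, n = 3 each). The log2 change was -0.72 ± 0.115 at 0.5 nM (SE; edgeR adjusted p = 0.000238) and -0.69 ± 0.115 at 0.05 nM (edgeR adjusted p = 0.000453). CAT1 was the only locus of the 10 called lower under all 15 alternatives at each dose, with log2 changes of -0.78 to -0.42 at 0.5 nM and -0.75 to -0.42 at 0.05 nM. The authors' deposited table gives CAT1 a signed fold ratio of -1.64 at 0.5 nM and -1.61 at 0.05 nM, where a negative ratio means lower than control.

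PRX2 (Cre02.g114600), a peroxiredoxin, reduces peroxides through reactive cysteines and draws electrons from thioredoxin-type donors. It had 429, 573 and 604 CPM in the controls, 356, 438 and 422 CPM at 0.05 nM, and 320.2, 395 and 369 CPM at 0.5 nM. The 0.5 nM libraries lay below all controls, whereas 0.05 nM replicate 2 exceeded control replicate 1. PRX2 averaged 361 ± 38.0 CPM at 0.5 nM, against 535 ± 93.1 CPM in controls (SD, n = 3 each). Its log2 change there was -0.57 ± 0.147 (SE; edgeR adjusted p = 0.00562). At 0.05 nM it averaged 405 ± 43.4 CPM, with a log2 change of -0.40 ± 0.147 (edgeR adjusted p = 0.0376). Within each replicate number PRX2 was lower than its control in 3 of 3 pairs at each dose.

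The call of PRX2 at 0.05 nM sat close to the threshold. It was lost when control replicate 2 (edgeR adjusted p = 0.123) or replicate 3 (0.134) was left out, when 0.05 nM replicate 1 (0.137), replicate 2 (0.0501) or replicate 3 (0.0716) was, and in a fit of those 2 groups alone (0.0509). Under library totals the log2 changes were -0.27 at 0.5 nM (edgeR adjusted p = 0.0814) and -0.13 at 0.05 nM (edgeR adjusted p = 0.392), neither of them called. In the authors' deposited table PRX2 has an FDR-corrected p of 0.00599 at 0.5 nM and 0.0694 at 0.05 nM.

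The ascorbate peroxidases reduce hydrogen peroxide with ascorbate as the electron donor. Both loci had higher means under MeHg, and APX2 passed the test at 0.05 nM. APX2 (Cre06.g285150) had few reads, 45 to 85 per control library, 117 to 179 at 0.05 nM and 105 to 169 at 0.5 nM. It stood at 2.34, 3.92 and 6.13 CPM in controls, 5.92, 9.42 and 7.06 CPM at 0.05 nM, and 5.26, 8.56 and 7.0 CPM at 0.5 nM. Control replicate 3 lay above replicate 1 of each dose, so the groups overlapped. APX2 rose at 0.05 nM to 7.47 ± 1.78 CPM, against 4.13 ± 1.91 CPM in controls (SD, n = 3 each). The log2 change was 0.88 ± 0.311 (SE; edgeR adjusted p = 0.0328). At 0.5 nM it averaged 6.94 ± 1.65 CPM, with a log2 change of 0.77 ± 0.312 that did not pass (edgeR adjusted p = 0.0502). With the replicate block it passed at 0.5 nM too (edgeR adjusted p = 0.00164).

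The calls of APX2 sat near the threshold at both doses. At 0.05 nM the call was lost on omitting control replicate 1 (edgeR adjusted p = 0.0932, log2 change 0.56) or replicate 2 (0.0824), 0.05 nM replicate 2 (0.121) or replicate 3 (0.0597), or 0.5 nM replicate 3 (0.0524). At 0.5 nM it gained a call without control replicate 3 (edgeR adjusted p = 0.00656, log2 change 1.18), 0.05 nM replicate 1 (0.0468), 0.05 nM replicate 2 (0.0485) or 0.5 nM replicate 1 (0.0273). DESeq2 also called it at 0.5 nM (DESeq2 adjusted p = 0.0499). The authors' deposited table lists a signed fold ratio of 1.82 at 0.05 nM and 1.69 at 0.5 nM, with FDR-corrected p of 0.0152 and 0.0308.

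APX1 (Cre02.g087700), the other ascorbate peroxidase, stood at 56.3, 83.3 and 88.7 CPM in controls, 74.7, 90.2 and 92.2 CPM at 0.05 nM, and 78.8, 91.0 and 106.5 CPM at 0.5 nM. The groups overlapped, with control replicate 1 below all other libraries. The log2 change was 0.28 at 0.5 nM (95% interval -0.09 to 0.65, edgeR adjusted p = 0.177) and 0.17 at 0.05 nM (interval -0.20 to 0.54, edgeR adjusted p = 0.411). Within replicate numbers APX1 was higher than its control in 3 of 3 pairs at each dose, by 0.13 to 0.49 at 0.5 nM and 0.06 to 0.41 at 0.05 nM. With the replicate block it was called at 0.5 nM (edgeR adjusted p = 0.00583) and not at 0.05 nM (0.0578). Library totals alone gave calls at both doses, with log2 changes of 0.57 and 0.45. Without control replicate 1 the change at 0.05 nM was -0.01.

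**Figure D2:**
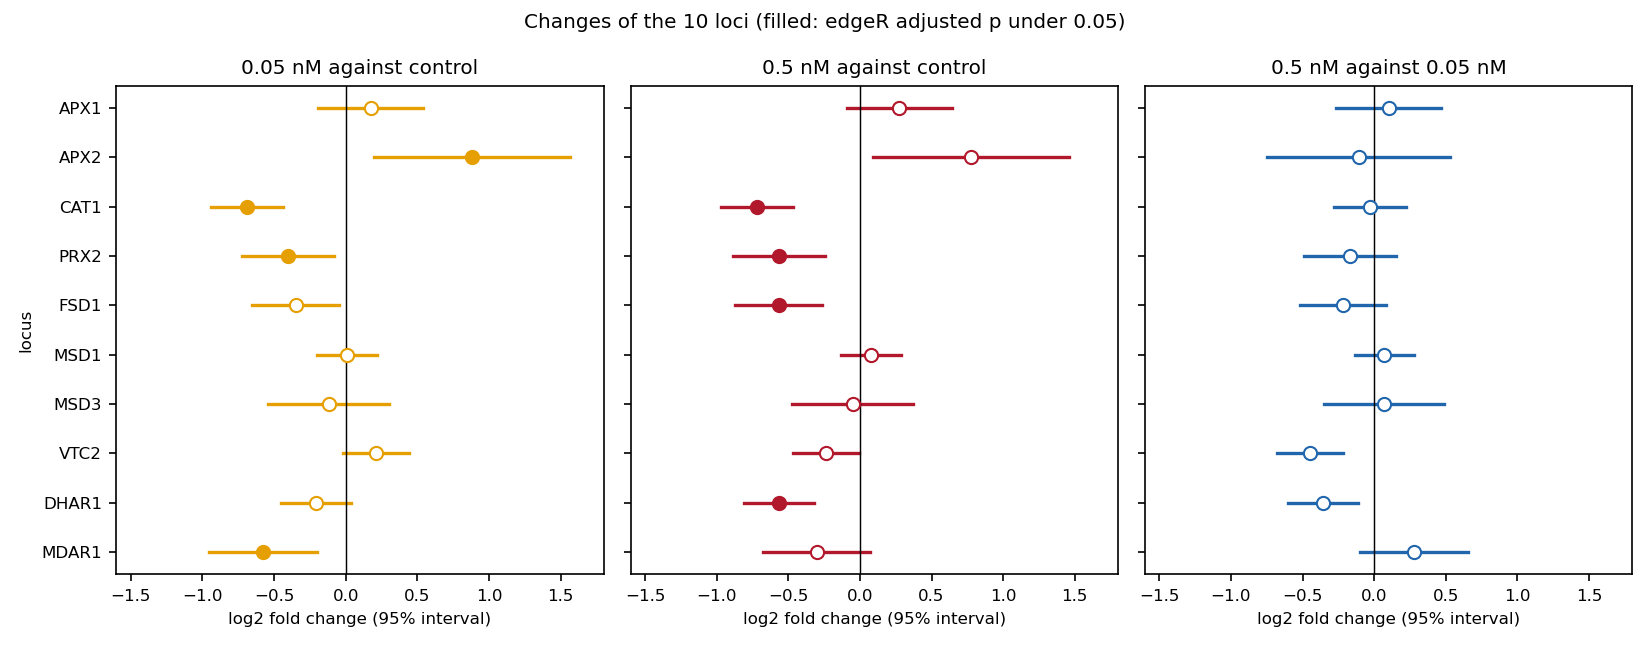
Log2 fold changes (x axis) with 95% intervals for the 10 loci (y axis) at 0.05 nM and at 0.5 nM against control, and at 0.5 nM against 0.05 nM, with filled points for edgeR adjusted p under 0.05. Filled points appear for CAT1 and PRX2 in both comparisons with control, and there are 0 filled points between the doses.

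Of the 3 superoxide dismutase loci, the iron enzyme's fell and the manganese enzymes' were not called. FSD1 (Cre10.g436050) is named for the iron superoxide dismutase, which works in the chloroplast. It had 229.6, 321.5 and 311 CPM in controls, 209, 239.8 and 228 CPM at 0.05 nM, and 170.2, 212 and 200.3 CPM at 0.5 nM. All 0.5 nM libraries lay below all controls, and the 0.05 nM libraries overlapped with control replicate 1. FSD1 fell at 0.5 nM to 194 ± 21.4 CPM, against 287 ± 50.2 CPM in controls (SD, n = 3 each). On the log2 scale this was -0.57 ± 0.139 (SE; edgeR adjusted p = 0.00406).

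At 0.05 nM FSD1 averaged 226 ± 15.7 CPM, with a log2 change of -0.35 ± 0.138 just outside the threshold (edgeR adjusted p = 0.052). It was called there with the replicate block (edgeR adjusted p = 0.00194), with RLE scaling (edgeR adjusted p = 0.0349), with DESeq2 (DESeq2 adjusted p = 0.0209), and without control replicate 1 (edgeR adjusted p = 0.00394) or 0.5 nM replicate 1 (0.0495). The other 10 of the 15 alternatives left FSD1 uncalled at 0.05 nM, such as omitting control replicate 2 (edgeR adjusted p = 0.193). The authors' FDR-corrected p there was 0.108. Under library totals the change was -0.27 at 0.5 nM (edgeR adjusted p = 0.0751) and -0.08 at 0.05 nM. On the TMM scale, control replicate 1 was the lowest control for 8 of the 10 loci, FSD1 among them, the exceptions being CAT1 and MDAR1. By library totals it was also not the lowest for MSD1 (171 CPM, against 157 CPM in control replicate 3) and VTC2 (244 against 218 CPM). For how many of all genes replicate 1 was lowest was not computed.

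MSD1 (Cre02.g096150), a manganese superoxide dismutase, was the steadiest of the 10 loci in the controls. It had 181, 192 and 190.3 CPM in controls, 182, 196 and 188 CPM at 0.05 nM, and 184, 194 and 217 CPM at 0.5 nM. Its log2 change was 0.08 at 0.5 nM (95% interval -0.13 to 0.29) and 0.01 at 0.05 nM (interval -0.20 to 0.22), and neither passed (edgeR adjusted p = 0.493 and 0.955). Under library totals MSD1 shifted with the median gene and was called higher, by 0.37 at 0.5 nM and 0.27 at 0.05 nM.

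MSD3 (Cre16.g676150), a further manganese superoxide dismutase, had group means closer to each other than its replicates were. It had 169, 234 and 289.6 CPM in controls, 176, 238 and 223 CPM at 0.05 nM, and 181, 241 and 247 CPM at 0.5 nM. Replicate 1 was the lowest library of every group, and control replicate 3 the highest of all 9. The log2 change was -0.05 at 0.5 nM (95% interval -0.47 to 0.37, edgeR adjusted p = 0.834) and -0.12 at 0.05 nM (interval -0.54 to 0.30, edgeR adjusted p = 0.628). Its sign turned with library totals alone, to 0.25 and 0.15, and without control replicate 3, to 0.14 and 0.08, and none of these values was called. At 0.5 nM the sign also turned without 0.5 nM replicate 1, to 0.08.

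VTC2 (Cre13.g588150) is named for GDP-L-galactose phosphorylase, which catalyses the first committed step of ascorbate synthesis in the plant-type pathway. It was the only locus of the 10 whose libraries lay wholly above the controls at one dose and wholly below them at the other. VTC2 had 258, 305 and 265 CPM in controls, 314, 324 and 319.8 CPM at 0.05 nM, and 234, 253 and 215 CPM at 0.5 nM. Every 0.05 nM library exceeded every control, and every 0.5 nM library lay below every control. The means were 234 ± 19.2 CPM at 0.5 nM and 319 ± 4.67 CPM at 0.05 nM, against 276 ± 25.4 CPM in controls (SD, n = 3 each). Neither dose passed against control, with log2 changes of -0.24 ± 0.104 at 0.5 nM (SE; edgeR adjusted p = 0.0687) and 0.21 ± 0.104 at 0.05 nM (edgeR adjusted p = 0.108). With the replicate block both passed (edgeR adjusted p = 0.0166 and 0.0287). At 0.5 nM VTC2 was also called with RLE scaling (edgeR adjusted p = 0.0334), with DESeq2 (DESeq2 adjusted p = 0.0127), and without control replicate 1 (edgeR adjusted p = 0.0386) or 0.5 nM replicate 2 (0.0473). In all, 5 of the 15 alternatives called it at 0.5 nM, and omitting control replicate 2 gave an edgeR adjusted p of 0.255. The authors' FDR-corrected p was 0.11 at 0.5 nM and 0.184 at 0.05 nM. By library totals the change was 0.06 at 0.5 nM, not called, and 0.47 at 0.05 nM, called (edgeR adjusted p = 0.00585). On that scale the 0.5 nM libraries, at 265, 282 and 213 CPM, overlapped with the controls, at 244, 267 and 218 CPM.

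DHAR1 (Cre10.g456750), dehydroascorbate reductase, returns oxidized ascorbate to its reduced form with glutathione, itself a thiol. Its mean was highest in controls, intermediate at 0.05 nM and lowest at 0.5 nM. DHAR1 had 163, 206 and 191 CPM in controls, 158, 175 and 152 CPM at 0.05 nM, and 126, 136 and 117 CPM at 0.5 nM. All 0.5 nM libraries lay below all 0.05 nM libraries and all controls. DHAR1 fell at 0.5 nM to 126 ± 9.44 CPM, against 187 ± 21.5 CPM in controls (SD, n = 3 each). The fitted log2 change was -0.57 ± 0.112 (SE; edgeR adjusted p = 0.00102). At 0.05 nM it averaged 162 ± 12.0 CPM, lower by a log2 value of -0.21 ± 0.112 that did not pass (edgeR adjusted p = 0.139). It passed at 0.05 nM with the replicate block (edgeR adjusted p = 0.0346) and without control replicate 1 (edgeR adjusted p = 0.0322). By library totals the change was -0.26 at 0.5 nM (edgeR adjusted p = 0.0722) and turned to 0.05 at 0.05 nM.

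MDAR1 (Cre17.g712100), monodehydroascorbate reductase, recycles the ascorbate radical with NAD(P)H. It had 154 to 346 reads per control library, 163 to 244 at 0.05 nM and 208 to 301 at 0.5 nM. Its level was 18.0, 11.6 and 17.7 CPM in controls, 12.4, 10.3 and 9.06 CPM at 0.05 nM, and 13.0, 11.7 and 13.9 CPM at 0.5 nM. Control replicate 2 lay below 0.05 nM replicate 1 and below all 0.5 nM libraries, while control replicate 1 and control replicate 3 lay above all treated libraries, so the groups overlapped at both doses. MDAR1 fell at 0.05 nM to 10.6 ± 1.66 CPM, against 15.7 ± 3.59 CPM in controls (SD, n = 3 each). The difference was -0.58 ± 0.173 on the log2 scale (SE; edgeR adjusted p = 0.0151). This call was lost without control replicate 3 (edgeR adjusted p = 0.0558), without 0.05 nM replicate 3 (0.0687) and with library totals alone (0.156). At 0.5 nM the log2 change was -0.30 ± 0.171 (edgeR adjusted p = 0.149), called with the replicate block (edgeR adjusted p = 0.0499) and without control replicate 2 (edgeR adjusted p = 0.0186). The authors' deposited table has FDR-corrected p of 0.0102 at 0.05 nM and 0.21 at 0.5 nM for MDAR1.

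**Figure D3:**
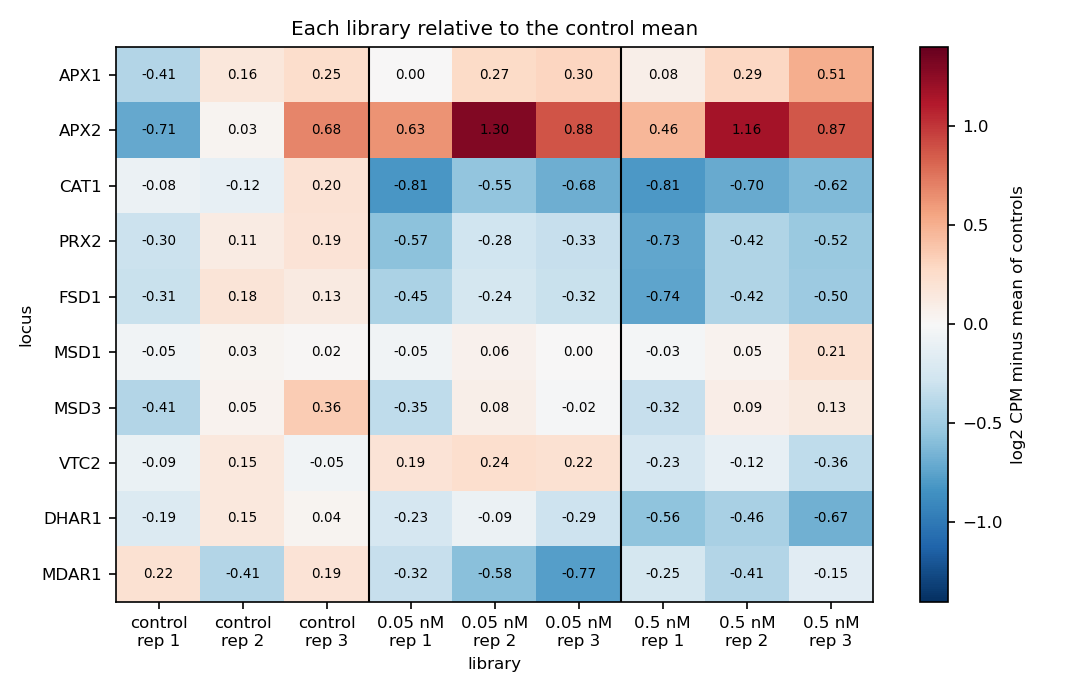
Log2 CPM after TMM scaling of each locus (rows) in each library (columns) minus the mean of the 3 controls. Blue stands for lower and red for higher values. CAT1 is lower than the control mean in all 6 treated libraries, VTC2 is above it in the 3 libraries at 0.05 nM and below it in the 3 at 0.5 nM, and replicate 1 is the lowest library of every group for 6 loci, APX1, APX2, PRX2, FSD1, MSD1 and MSD3.

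Between the doses, VTC2 and DHAR1 differed most. At 0.5 nM VTC2 stood at 73.3% and DHAR1 at 78.0% of the 0.05 nM level. The log2 differences were -0.45 ± 0.104 for VTC2 (SE; edgeR adjusted p = 0.0707) and -0.36 ± 0.112 for DHAR1 (edgeR adjusted p = 0.157). For these 2 of 10 loci all libraries at 0.5 nM lay below all libraries at 0.05 nM, against 12.1% of all genes. None lay wholly above, against 8.60%, and 20.7% of all genes had no overlap in either direction. Within replicate numbers the log2 differences ran from -0.57 to -0.35 for VTC2 and from -0.38 to -0.33 for DHAR1. In edgeR's test 0 of the 10 loci passed between the doses, where 0.832% of all genes did, 0.0135% higher and 0.819% lower. Of the 10, 2 had an unadjusted p under 0.05, and DESeq2 called 2, VTC2 (DESeq2 adjusted p = 0.000743) and DHAR1 (DESeq2 adjusted p = 0.0357). With the replicate block the same 2 loci passed (edgeR adjusted p = 0.00191 for VTC2 and 0.0094 for DHAR1). When control replicate 1 was omitted, VTC2 passed (edgeR adjusted p = 0.0374), and 20 of all genes were called higher and 363 lower.

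For the other 8 loci the doses were not told apart. The log2 differences between 0.5 nM and 0.05 nM ran from -0.22 for FSD1 to 0.28 for MDAR1. The narrowest interval was that of MSD1, from -0.14 to 0.28, and the widest that of APX2, from -0.74 to 0.53. CAT1, with a difference of -0.03 (95% interval -0.28 to 0.22), had almost equal means at the doses although their concentrations differed. Since both doses were set against the same 3 controls, the changes at the doses share those controls. By Pearson correlation of log2 CPM over the 9 libraries, the tested locus most like CAT1 was Cre17.g723650 (r = 0.99) and the one most like PRX2 was g15196 (r = 0.99). Each was the highest r among 14038 candidate loci with a mean of at least 1 CPM. The libraries fall into groups and share their scaling, so these values are a description.

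A joint test of both dose terms asks whether a locus differs among the 3 groups at all. It called 6 of the 10 loci, against 57.1% of all genes. These were CAT1 (edgeR adjusted p = 0.000267), DHAR1 (0.00324), VTC2 (0.00936), FSD1 (0.0114), PRX2 (0.0137) and MDAR1 (0.0366). APX2 (edgeR adjusted p = 0.0614), APX1 (0.369), MSD1 (0.722) and MSD3 (0.862) did not pass. With the replicate block APX1 (edgeR adjusted p = 0.0175) and APX2 (0.00124) passed as well. CAT1 and VTC2 were called under all 14 alternatives of this test. The call of MDAR1 was lost without control replicate 1 (edgeR adjusted p = 0.0885), control replicate 3 (0.12), 0.05 nM replicate 2 (0.0933) or 0.05 nM replicate 3 (0.118). That of PRX2 was lost without control replicate 2 (edgeR adjusted p = 0.0724) or control replicate 3 (0.0675), and that of FSD1 without control replicate 2 (0.0676). Under library totals 4 of the 6 calls were lost, those of PRX2 (edgeR adjusted p = 0.199), FSD1 (0.176), DHAR1 (0.0746) and MDAR1 (0.243), and APX1 (0.00887), APX2 (0.00674) and MSD1 (0.0132) gained one. APX2 gained a call without control replicate 3 (edgeR adjusted p = 0.0099), 0.05 nM replicate 1 (0.0445) or 0.5 nM replicate 1 (0.0387). The share of all genes passing the joint test was computed for the main fit alone, so none stands beside the calls of the alternatives.

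**Figure D4:**
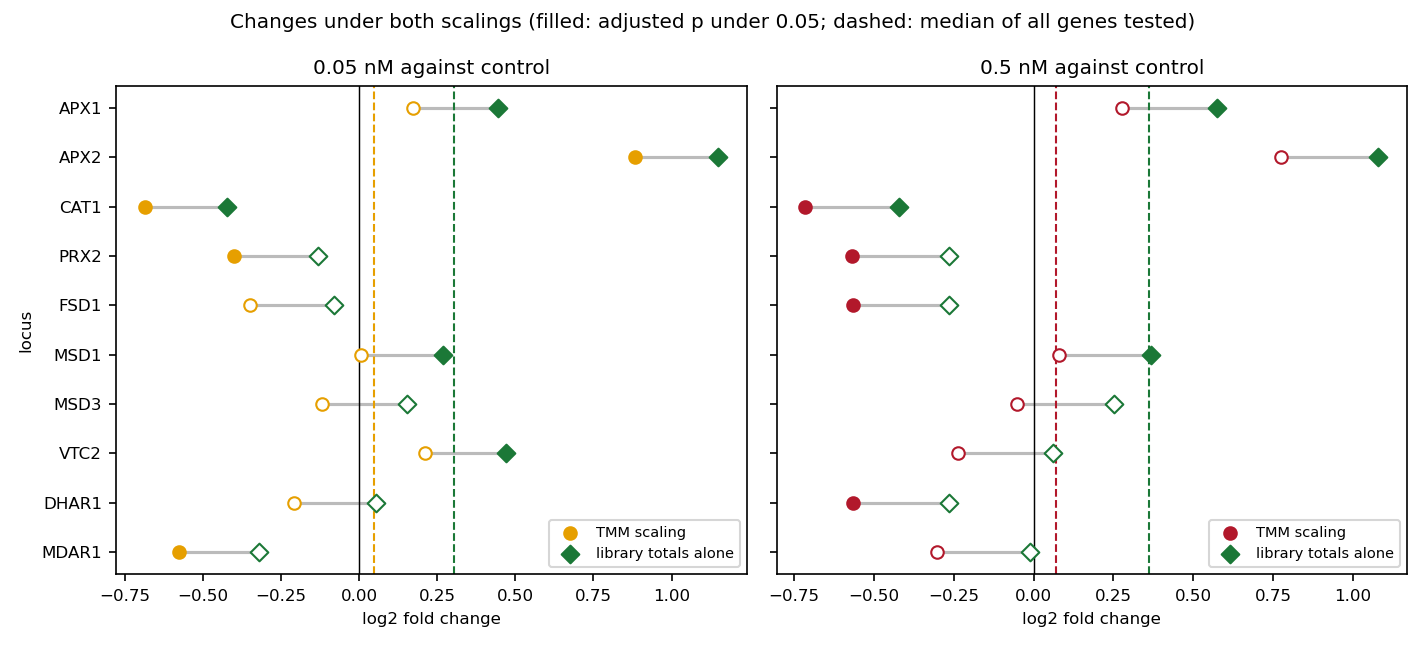
Log2 fold changes (x axis) of the 10 loci (y axis) at 0.05 nM and at 0.5 nM against control with TMM scaling (circles) and with library totals alone (diamonds), filled where the edgeR adjusted p is under 0.05, with dashed lines for the median of all genes tested. Library totals move every locus to the right by about as much as the median gene, and CAT1 is lower and called under both scalings.

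Ratios of read counts between loci of 1 library do not depend on how libraries are scaled, so they show which transcripts changed relative to each other. Of the 12 pairs of loci within the same role, the ratios did not overlap with those of the controls for 7 at 0.5 nM and 8 at 0.05 nM, nor between the doses for 5. The pairs were chosen with earlier results known, and the share over other pairs of genes was not computed. APX1 had 0.630, 0.675 and 0.745 reads for each read of CAT1 at 0.5 nM and 0.598, 0.603 and 0.675 at 0.05 nM, against 0.271, 0.413 and 0.352 in controls. The mean log2 ratio of APX1 over CAT1 was higher by 1.002 at 0.5 nM and by 0.876 at 0.05 nM. APX1 over PRX2 was higher by 0.85 and 0.58 at those doses, and the 3 groups followed each other without overlap. APX2 over CAT1 was higher by 1.54 at 0.5 nM and 1.62 at 0.05 nM, and APX2 over PRX2 by 1.39 and 1.33, again without overlap with the controls. At 0.05 nM the ratios of APX1 over APX2 and of CAT1 over PRX2 also lay wholly below the controls, with differences of -0.74 and -0.29, and both overlapped at 0.5 nM, with differences of -0.54 and -0.15.

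Among the superoxide dismutases, FSD1 had 0.925, 1.09 and 0.922 reads per read of MSD1 at 0.5 nM and 1.15, 1.22 and 1.21 at 0.05 nM, against 1.27, 1.67 and 1.63 in controls. The mean log2 ratio of FSD1 over MSD1 differed from control by -0.63 at 0.5 nM and by -0.34 at 0.05 nM, and by -0.29 between 0.5 nM and 0.05 nM, without overlap in each of these comparisons. FSD1 over MSD3 differed from control by -0.53 at 0.5 nM without overlap, and by -0.24 at 0.05 nM with overlap (exact permutation p = 0.2). The ratio of MSD1 over MSD3 overlapped between all groups. In the ascorbate group, VTC2 over DHAR1 stood at 1.85, 1.87 and 1.84 at 0.5 nM and 1.99, 1.85 and 2.10 at 0.05 nM, against 1.58, 1.48 and 1.39 in controls. That ratio was higher by 0.33 at 0.5 nM and by 0.42 at 0.05 nM on the log2 scale. VTC2 over MDAR1 and DHAR1 over MDAR1 were lower at 0.5 nM than at 0.05 nM without overlap, with differences of -0.74 and -0.65. In an exact two-sided permutation test, 3 libraries against 3 cannot give a p below 0.1, and each difference without overlap had that p. Over the 36 comparisons of these ratios the smallest adjusted p was 0.18, so none passed.

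**Figure D5:**
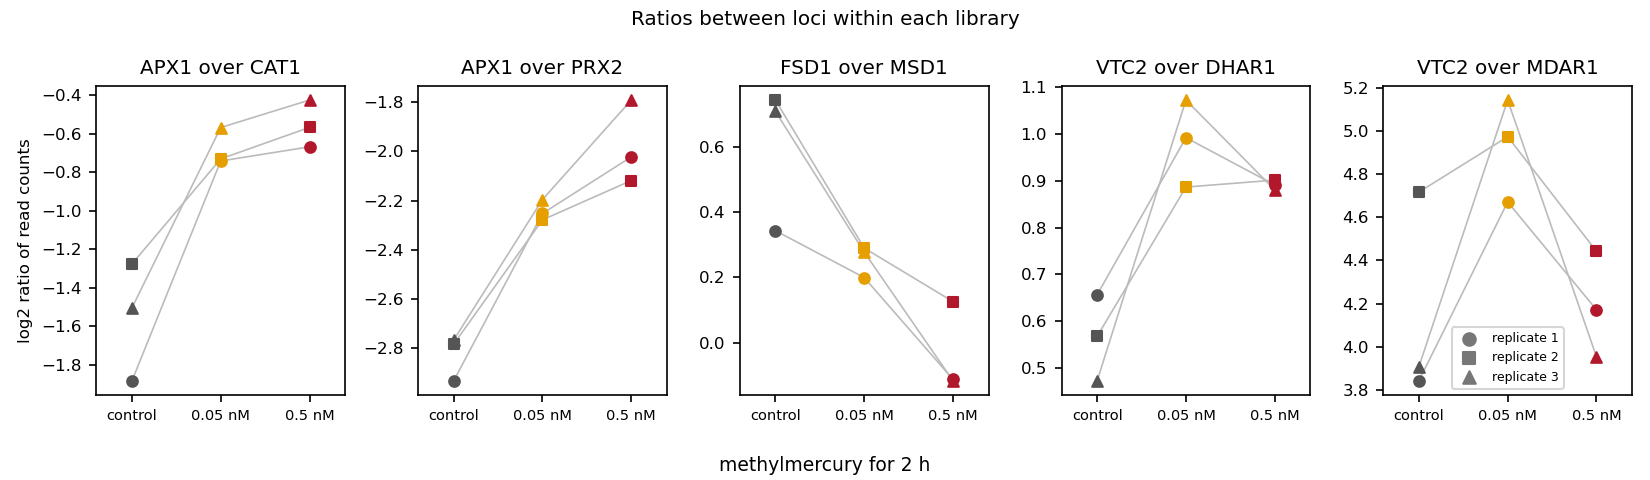
Log2 ratios of read counts between loci within each library (y axis, a separate range per panel) in the control, 0.05 nM and 0.5 nM groups (x axis), with marker shapes and grey lines for the replicate number. APX1 over CAT1 and APX1 over PRX2 lie higher and FSD1 over MSD1 lies lower in all 6 treated libraries than in the controls. VTC2 over MDAR1 overlaps with the controls at both doses.

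Other loci of thiol and ascorbate metabolism were followed as a list of 19 recalled locus numbers, of which 16 are in the count files and 15 were tested. The list holds loci recalled as further superoxide dismutases, a peroxidase, peroxiredoxins, glutathione peroxidases and reductases, thioredoxins with their reductases, and a further step of ascorbate synthesis. The table of genes does not name them, so no single role is given. Of these, 5 rose and 4 fell at 0.5 nM, where 31.6% of all genes were called higher and 28.7% lower. The log2 changes spanned -0.996 to 0.93, and their median of 0.07 equalled that of all genes to 2 decimals. At 0.05 nM 4 rose and 3 fell, against 27.2% and 25.0% of all genes, with a median of 0.11 against 0.05 over all genes. Between the doses 0 passed in edgeR's test, against 0.832% of all genes, with 1 locus at an unadjusted p under 0.05. DESeq2 called 0 of the list, and 47 higher and 606 lower of all genes. With the replicate block 1 was called lower, beside 287 of all genes higher and 1041 lower.

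The largest rises called on this list at 0.5 nM were those of Cre03.g197750, at 5.72 ± 0.621 CPM against 3.05 ± 0.766 CPM in controls, and of Cre02.g078300, at 37.9 ± 18.3 CPM against 21.8 ± 2.78 CPM (SD, n = 3 each). The log2 changes were 0.93 ± 0.228 (SE; edgeR adjusted p = 0.00417) and 0.80 ± 0.266 (edgeR adjusted p = 0.0239). The largest drops were those of Cre10.g422300, at 5.19 ± 0.357 CPM against 10.4 ± 1.51 CPM in controls, and of Cre09.g391900, at 433 ± 25.5 CPM against 619.7 ± 64.4 CPM (SD, n = 3 each). The log2 changes were -0.996 ± 0.157 (edgeR adjusted p = 0.000206) and -0.52 ± 0.113 (edgeR adjusted p = 0.00201). Under library totals the list counted 8 higher and 1 lower at 0.5 nM, where 6707 of 14778 genes were higher and 2557 lower. At 0.05 nM the list counted 7 higher and 0 lower, beside 5905 and 2080 of all genes. With 1 library left out, 4163 to 4704 of all genes were higher at 0.5 nM. At 0.05 nM 3239 to 4074 of all genes were higher and 3150 to 3765 lower. On the list, 3 to 6 rose at 0.5 nM, the 3 without control replicate 1 or control replicate 3. At 0.05 nM 2 to 5 rose, the 2 without 0.05 nM replicate 3, and 0 to 4 fell. The number lower was 0 without 0.05 nM replicate 3 and 1 when control replicate 2, control replicate 3 or 0.05 nM replicate 1 was omitted.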

How the data were processed

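RNA from 9 cultures was sequenced with a stranded Illumina mRNA kit, per the labels' protocols. TopHat2 and HTSeq are the tools named in the submitters' processing notes. For their versions, the genome build and the strand setting, nothing is stated in the labels or headers. The authors' files hold raw, unnormalized read counts, deposited per gene and library, and HTSeq's unassigned categories were kept out of library sizes (reads outside genes 1.02% to 1.24%, ambiguous reads 0.264% to 0.331%). The authors' deposited table repeats the counts (9 of 9 columns equal), with a rounded CPM score that was not tested, signed fold ratios and FDR-corrected p-values from the authors' EDGE tests, per the file headers. The RefSeq gene table matched all 10 loci by locus tag, and 0 of their neighbours there overlap them.

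Counts were fitted in R 4.3.3 with edgeR 4.0.16 (filterByExpr, TMM, robust quasi-likelihood, group as the only term, 9 libraries, 6 residual degrees of freedom) and tested two-sided with Benjamini-Hochberg adjustment over 14778 genes at 0.05. Standard errors and 95% intervals were derived from each fold change with its F value. The fit was tried on simulated counts in which a small set of genes was changed in random directions. Far more genes were called in these data, so the simulation does not bear on the choice of scaling. Alternatives were RLE scaling, library totals, no filter, DESeq2 1.42.0, the replicate block, the 2 groups alone and each library left out. Same-numbered replicates correlated in their deviations from group means at 0.104 to 0.63 over all group pairs. The main fit left the replicate number out, and the block was run as an alternative. Different numbers correlated at -0.49 to 0.37, and control replicate 3 correlated more with replicate 2 than with replicate 3 of each dose. Nothing in the labels beyond the number states a pairing. All 10 loci are named, and of the further list the 2 largest rises and drops called at 0.5 nM. The members, lists and pairs of loci were chosen with earlier results of these data known. Levels of different loci were not compared, since no coding lengths were at hand.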

Additional observations from a re-analysis of the deposited data

How the results depend on the processing

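Dropping the filter on low counts changed no direction and no call of the 10 loci, while scaling by library totals changed the most. Which scaling is nearer to RNA per cell cannot be read from these files. The cause of the other changes was not tested. Over the 10 loci, 377 of 449 alternative values kept direction and side of the threshold, 18 lost a call, 33 gained one and 21 turned direction, none of them called. The 3 replicates of each group limit all tests, and counting error weighs most on APX2 and MDAR1. DESeq2 gave APX2 no adjusted p between the doses.

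With library totals, 6707 genes were called higher and 2557 lower at 0.5 nM. There 3 of the 10 loci were higher and 1 lower, and 8 further loci were higher and 1 lower. The log2 changes were 0.57 for APX1, 1.08 for APX2, -0.27 for PRX2, -0.27 for FSD1, 0.37 for MSD1, 0.25 for MSD3, 0.062 for VTC2 and -0.26 for DHAR1. At 0.05 nM 5905 genes were higher and 2080 lower, with 4 loci higher and 1 lower, and 7 further loci higher and 0 lower. The log2 changes there were 0.45 for APX1, -0.13 for PRX2, 0.27 for MSD1, 0.15 for MSD3, 0.47 for VTC2, 0.055 for DHAR1 and -0.32 for MDAR1. At 0.5 nM against 0.05 nM, 0 genes passed in either direction (0 higher, 0 lower), with 0.0021 for CAT1. In the joint test the adjusted p was 0.00887 for APX1, 0.00674 for APX2, 0.199 for PRX2, 0.176 for FSD1, 0.0132 for MSD1, 0.0746 for DHAR1 and 0.243 for MDAR1.

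With the replicate block, 2 loci were higher at 0.5 nM (APX1 0.29, APX2 0.78), and VTC2 (-0.24) and MDAR1 (-0.29) joined the lower ones. At 0.05 nM 2 were higher and 5 lower, with -0.34 for FSD1, 0.22 for VTC2 and -0.21 for DHAR1. At 0.5 nM against 0.05 nM, 287 genes were called higher and 1041 lower, 2 of the loci lower (VTC2 -0.45, DHAR1 -0.36) and 1 further locus lower. The joint test gave 0.0175 for APX1 and 0.00124 for APX2. The block changed no other call of the loci.

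RLE scaling gave -0.29 for VTC2 at 0.5 nM, and -0.40 for FSD1 and -0.039 for MSD1 at 0.05 nM. DESeq2 called 1 locus higher at 0.5 nM (APX2 0.71) and gave -0.29 for VTC2, and at 0.05 nM -0.40 for FSD1 and -0.039 for MSD1. Between the doses DESeq2 called 47 genes higher and 606 lower, and 2 loci lower (VTC2 -0.45, DHAR1 -0.36). A fit of only the groups compared gave -0.40 for PRX2 at 0.05 nM and 53 genes lower between the doses.

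Leaving out 1 library at a time, at 0.5 nM 0 to 1 loci and 3 to 6 further loci were higher, with APX2 at 0.45 to 1.18, MSD3 at -0.24 to 0.14, VTC2 at -0.30 to -0.16 and MDAR1 at -0.48 to -0.20. At 0.05 nM 0 to 1 loci were higher and 1 to 5 lower, and 2 to 5 further loci were higher and 0 to 4 lower. Of all genes, 4163 to 4704 were higher at 0.5 nM, and 3239 to 4074 higher and 3150 to 3765 lower at 0.05 nM. There APX1 lay at -0.013 to 0.30, APX2 at 0.56 to 1.29, PRX2 at -0.55 to -0.31, FSD1 at -0.49 to -0.26, MSD1 at -0.027 to 0.033, MSD3 at -0.31 to 0.076, DHAR1 at -0.30 to -0.14 and MDAR1 at -0.76 to -0.48. At 0.5 nM against 0.05 nM, 0 to 20 genes passed as higher and 0 to 363 as lower, and 0 to 1 loci lower, with APX1 at -0.019 to 0.20, APX2 at -0.30 to 0.093, CAT1 at -0.093 to 0.037, MSD1 at -0.0022 to 0.12, MSD3 at -0.049 to 0.20 and VTC2 at -0.51 to -0.39. In the joint test the adjusted p ran from 0.0099 to 0.195 for APX2, 0.00129 to 0.0724 for PRX2, 0.000707 to 0.0676 for FSD1 and 0.00496 to 0.12 for MDAR1.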
